A study of Homo sapiens with 6 samples.

Results

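The complement components and complement regulators described here are 9 genes, C3, CFB, CFI, C1R, C1S, CD46, CD55, CD59 and SERPING1, out of the 21293 genes of the deposited expression table. They were selected by gene symbol, and all 9 symbols were found. The list was drawn up with the values of all 6 libraries in view, and the difference of CFB and CFI between the control libraries was among those values, so the levels and fold changes of the 9 genes are given as a description and no p-value is given for them. The RNA-seq libraries come from H2087-LCC, human lung adenocarcinoma (LUAD) cells that had been selected in animals for their capacity to stay latent (LCC stands for latency competent cancer). All cells were kept in medium with 2% serum. The SB group was incubated with SB505124 (SB, 2.5 μM), a small molecule that blocks the type I TGFβ receptor. The other groups received TGFβ (100 pM TGFβ1) for 3 days or 7 days, and each group had 2 libraries. The study describes the 2 libraries of a group as technical replicates, so the spread between them, and every standard error and p-value below, may not extend to separate cultures. SB was sampled at 3 days alone, so treatment and time in culture cannot be told apart in the comparison of 7 days of TGFβ with SB. Nor can length of treatment and time in culture be told apart in the comparison of 7 days with 3 days of TGFβ.

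Complement is a cascade of plasma and surface proteins that tags cells and microbes for removal. The classical pathway starts when C1q binds its target and activates the serine proteases C1r and C1s, and the alternative pathway is amplified by factor B. Both routes cut C3, the central component, and lead to assembly of a pore, the membrane attack complex. Nucleated cells hold this cascade in check with surface regulators such as CD46, CD55 and CD59, and factor I and C1 inhibitor do so in fluid. The liver makes most of the circulating components, and epithelial cells, those of the lung included, also produce several of them.

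The normalized counts summed to between 34306283 and 36340734 per library. The number of assigned reads, estimated from the steps between low values, differed by up to 1.25 times between libraries. The TGFβ targets SMAD7 and SKIL were higher in each of the 4 TGFβ libraries than in both SB libraries. The 2 SB libraries differed more than the other pairs: 397 of 14395 genes (all those averaging at least 10, the genes tested) were over 2-fold apart in SB, against 118 between the 3-day libraries and 126 between the 7-day libraries. SFTPB, which encodes surfactant protein B and is a lung epithelial marker, was at 1104 normalized counts in the first SB library and at 8273 in the second, and at 19 to 24 in the TGFβ libraries. Of 9 lung epithelial markers, SFTPC was at or near 0 in every library, and 6 of the 8 tested, SFTPB and CDH1 among them, were called lower at both TGFβ times by the test defined below (14% of all genes tested were at 3 days and 26.9% at 7 days). KRT7 was called higher at both times and KRT8 at neither. Their summed level was 83940 to 117965 normalized counts per library. Of 12 markers of leukocytes, endothelial cells and hepatocytes, 10 had a mean under 10, the exceptions being CD68, which epithelial cells also express, and PECAM1 at 36 to 67.

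The SB pair also differed in the secreted complement proteins. CFB was 6.36-fold higher in the second SB library than in the first on the scale of log2 of the normalized count plus 1. For C3 the gap was 7.33-fold, for CFI 2.76-fold, for C1R 2.67-fold and for C1S 2.14-fold. These gaps are a description, since the list was chosen with them in view. The membrane regulators were close in both SB libraries, with gaps between 1.15-fold and 1.17-fold for CD46, CD55 and CD59. Within the TGFβ pairs, the largest gap among the 8 genes tested was that of C3 at 3 days, 1.60-fold. For the 8 genes tested, each comparison with SB is therefore also given against each SB library alone, and the part that the SB gap plays in it was not tested further. In these bulk libraries, fewer cells that express a gene and less of its RNA per cell cannot be told apart.

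**Figure D1:**
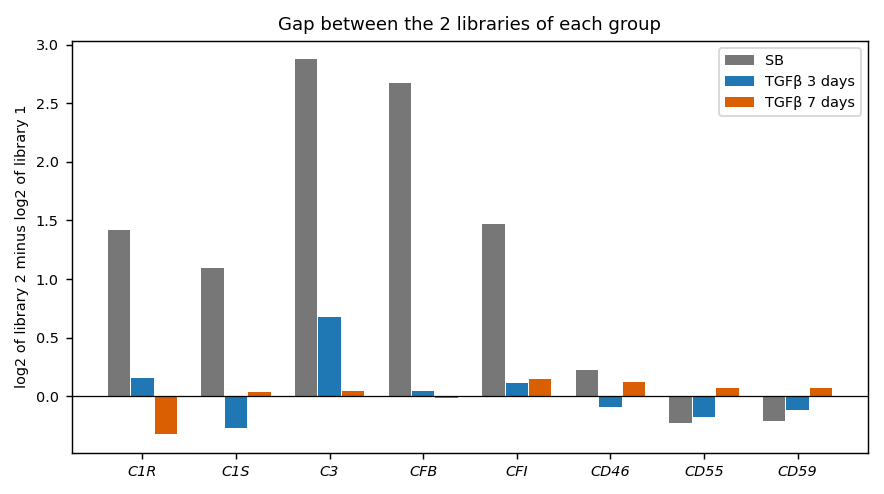
Bars give the difference of log2(normalized count + 1), library 2 minus library 1, within each group for the 8 genes tested. The SB bars of C1R, C1S, C3, CFB and CFI stand between 1.10 and 2.87, while the 3-day and 7-day bars lie between -0.32 and 0.68.

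C1R and C1S encode the proteases of the first classical pathway complex and lie side by side on chromosome 12 of GRCh37, C1S from 7096351 to 7178336 on the plus strand and C1R from 7187513 to 7245203 on the minus strand. C1R was at 118 and 317 normalized counts in SB, at 71 and 79 after 3 days of TGFβ and at 283 and 226 after 7 days. Both 3-day libraries lay below the other 4, and the 7-day values lay within the range of the SB pair. C1S was at 21 and 46 in SB, at 58 and 48 at 3 days and then 206 and 211 at 7 days. Here both 7-day libraries lay above the other 4, and the 3-day values lay just above the second SB library. C1S overlaps LPCAT3, a gene at a mean of 1482 normalized counts on the opposite strand, and the kit does not mark strand.

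Group differences were estimated with limma on log2(normalized count + 1) in one fit of the 6 libraries, and a gene was called when its Benjamini-Hochberg adjusted p over the 14395 genes was below 0.05. Between 7 days and 3 days of TGFβ, the log2 fold change was 1.74 for C1R (standard error, SE, 0.34) and 1.96 for C1S (0.31), or 3.35-fold and 3.90-fold, and both genes were called higher. Relative to SB, C1R was called lower at 3 days (-1.36, SE 0.34) and was not called at 7 days (0.38, SE 0.34). The C1R value at 3 days was -2.07 against the second SB library alone and -0.65, no longer called, against the first alone. That call was also lost when limma was run without a trend (SE 0.45) and without the filter on low values (SE 0.46). Without the filter, C1R was not called between 7 days and 3 days either. At 7 days the C1R value relative to SB turned from -0.32 against the second SB library to 1.09, called higher, against the first. C1S was called higher than SB at 7 days (2.70, SE 0.31), with 2.16 and 3.25 against the single SB libraries. At 3 days the C1S difference was 0.74 (SE 0.31) and was not called. It was called, at 1.29, against the first SB library alone, whereas it was 0.19 against the second.

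**Figure D2:**
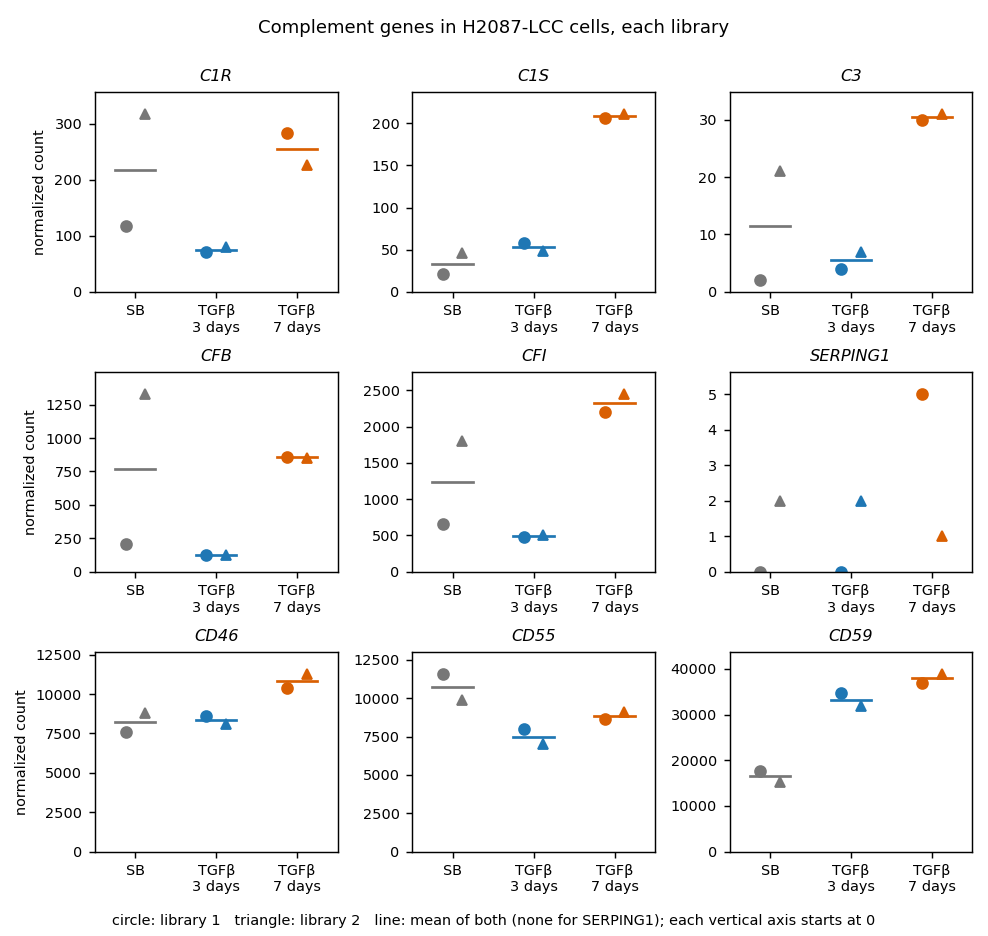
Each panel plots the normalized count (vertical axis, from 0) of 1 gene in the 2 libraries of SB, TGFβ for 3 days and TGFβ for 7 days, with the mean as a line except for SERPING1. CFB, CFI and C1R are lowest in the 3-day pair and split within SB, CD59 separates SB from the 4 TGFβ libraries, and SERPING1 does not exceed 5.

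C3, the component on which the pathways converge, lies on chromosome 19 from 6677715 to 6730573 on the minus strand and was barely detected. Its normalized count was 2 and 21 in SB, 4 and 7 at 3 days and 30 and 31 at 7 days. The 7-day libraries were the highest, and the 3-day values fell between those of the SB pair. Counting error alone gave 95% exact Poisson intervals of 0.266 to 7.95 and 12.9 to 31.7 for the 2 SB libraries, which did not overlap. The second SB interval overlapped those of both 7-day libraries (20.4 to 41.5 and 20.8 to 45.3). C3 was called higher at 7 days than at 3 days, by 2.32 on the log2 scale (SE 0.73). This call was lost when the first 3-day library (1.98) or either 7-day library (2.34 and 2.29) was left out. The reads behind these intervals were estimated, and the estimate was weak for the second SB library and the first 3-day library. Relative to SB, the C3 difference was -0.36 at 3 days (SE 0.73, not called) and 1.95 at 7 days (0.73, called higher). At 3 days it was -1.80, called lower, against the second SB library alone and 1.08 against the first. At 7 days it was 0.52 and no longer called against the second SB library, and 3.39 against the first. The call at 7 days was also lost with equal library totals (1.91) and without either of the 7-day libraries (1.98 and 1.93). In the annotation on GRCh37 used here C3 overlaps GPR108 on the same strand, from 6729925 to 6730573. GPR108 was at a mean of 1174.7 normalized counts, and the effect of this overlap on the C3 counts was not tested.

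CFB encodes factor B, the protease subunit of the alternative pathway C3 convertase, and lies in the MHC class III region on chromosome 6 of GRCh37, from 31913427 to 31919863 on the plus strand. It was at 208 and 1329 normalized counts in SB, at 121 and 125 after 3 days of TGFβ and at 861 and 851 after 7 days. The 4 TGFβ libraries formed tight pairs, with the 7-day pair 6.91-fold above the 3-day pair, and the SB libraries lay on either side of the 7-day level. The log2 fold change of CFB between 7 days and 3 days was 2.79 and it was called higher. The SE of this value was 0.57 in the fit of all libraries, which pools the SB spread, and 0.12 when the 4 TGFβ libraries were fitted alone. Relative to SB, CFB was called lower at 3 days (-2.09, SE 0.57), with -3.42 against the second SB library and -0.75 against the first, called lower in both cases. The CFB calls at 3 days relative to SB and between 7 days and 3 days were lost when limma was run without a trend (SE 0.81). They were also lost without the filter on low values (SE 0.82). At 7 days the difference from SB was 0.70 (SE 0.57) and was not called. Against the first SB library alone CFB was called higher at 7 days (2.04), and against the second alone it was called lower (-0.63), so its direction at 7 days relative to SB depended on the library.

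CFI encodes factor I, the protease that inactivates C3b and C4b with the help of cofactors such as CD46. It lies on chromosome 4 from 110652164 to 110723306 on the minus strand. CFI was at 654 and 1808 normalized counts in SB, at 474 and 511 at 3 days and then 2207 and 2448 at 7 days. The 3-day pair was the lowest and the 7-day pair the highest, with no overlap among the 3 groups. Between 7 days and 3 days the log2 fold change of CFI was 2.24 (SE 0.32), or 4.72-fold, and it was called higher. Relative to SB, CFI was called lower at 3 days (-1.14, SE 0.32) and higher at 7 days (1.10, SE 0.32). Both calls held against either SB library alone, with -1.88 and -0.41 at 3 days and 0.36 and 1.83 at 7 days for the second and the first library. The call at 7 days was lost without the second 7-day library (1.02). Both calls relative to SB were lost when limma was run without a trend (SE 0.45) and without the filter on low values (SE 0.46).

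The promoter sequences of CFB and CFI are shown because the results turn on these genes, and both have a single start in the RefSeq table. The 250 bases before each start are given 5′ to 3′ on the strand of the gene, in GRCh38.p14 coordinates, chr6:31945845-31946094 on the plus strand for CFB and chr4:109802000-109802249 on the minus strand for CFI. Capitals mark matches to 5 motifs searched on both strands, namely CAGAC (SMAD), TGANTCA (AP-1), TTCNNNGAA (STAT), and the IRF and NF-κB consensus motifs by name.
CFB: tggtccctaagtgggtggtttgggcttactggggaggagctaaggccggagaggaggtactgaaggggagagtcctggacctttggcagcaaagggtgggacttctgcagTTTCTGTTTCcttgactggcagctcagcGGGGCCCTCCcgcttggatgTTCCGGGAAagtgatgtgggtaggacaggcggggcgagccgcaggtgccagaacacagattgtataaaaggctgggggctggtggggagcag
CFI: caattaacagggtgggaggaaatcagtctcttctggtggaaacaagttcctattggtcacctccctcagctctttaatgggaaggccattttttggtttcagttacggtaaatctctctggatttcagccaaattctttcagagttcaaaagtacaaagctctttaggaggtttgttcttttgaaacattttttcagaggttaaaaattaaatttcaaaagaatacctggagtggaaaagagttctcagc
The CFB window held 1 IRF match on the reverse strand, from 140 to 131 bases before the start, 1 NF-κB match from 112 to 103 and 1 STAT match from 92 to 84. Of 34788 distinct windows of this length in the table, 3.02% held the IRF motif, 9.95% the NF-κB motif and 6.57% the STAT motif. The STAT motif was also found in 1 of the 2 windows of C1R and in 2 of the 4 windows of CD59, which overlap and share the match. The CFI window held none of the 5 motifs and had 38.0% G and C bases, against 60.0% for CFB and a median of 58.0% over all windows. CAGAC, present in 38.0% of all windows, was found in both windows listed for C1R, in that of CD55 and in 1 of the 4 windows of CD59. That CD59 window also held 2 AP-1 matches, of which 1 overlapped the CAGAC match, and AP-1 matches occurred in 6.59% of all windows. A match is a run of letters and was not tested as a binding site. The RefSeq promoter table had entries for 6 of the 9 genes, without C3, C1S and SERPING1.

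SERPING1 encodes C1 inhibitor, the serpin that inactivates C1r and C1s, and lies on chromosome 11 from 57364860 to 57386644 on the plus strand. It was at 0 and 2 normalized counts in SB, at 0 and 2 at 3 days and then 5 and 1 at 7 days. A count of 0 allows up to 3 reads, or 3.3 normalized counts in the first SB library and 2.74, by a weak estimate of its reads, in the first 3-day library. SERPING1 was below the minimum mean of 10 and was not tested, and no difference between groups was detectable at this depth.

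CD59, the GPI-anchored protein that blocks the membrane attack complex, lies on chromosome 11 from 33724556 to 33758025 on the minus strand and differed most from SB among the membrane regulators. Its normalized count was 17679 and 15303 in SB, 34626 and 31958 after 3 days of TGFβ and 36983 and 38882 after 7 days. The 4 TGFβ libraries lay above both SB libraries, and the 7-day pair lay above the 3-day pair. Relative to SB, the log2 fold change of CD59 was 1.02 at 3 days and 1.21 at 7 days (SE 0.09 for both), or 2.02-fold and 2.31-fold, and CD59 was called higher at both times. Against the single SB libraries the values stayed between 0.91 and 1.12 at 3 days and between 1.10 and 1.31 at 7 days. The difference between 7 days and 3 days, 0.19 (SE 0.09), was not called.

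CD46, a cofactor for factor I, and CD55, which accelerates the decay of the C3 convertases, both lie in the regulators of complement cluster on chromosome 1, CD55 from 207494864 to 207560149 and CD46 from 207925382 to 207968858, on the plus strand. CD46 was at 7577 and 8824 normalized counts in SB, at 8623 and 8089 at 3 days and then 10394 and 11274 at 7 days. The 3-day pair lay within the SB pair, and the 7-day pair lay above the other 4 libraries. CD46 was called higher at 7 days, both relative to SB (0.40, SE 0.09) and relative to 3 days (0.37, SE 0.09), or 1.32-fold and 1.30-fold. The difference of CD46 between 3 days and SB was 0.03 (SE 0.09, not called). It turned negative with equal library totals (-0.0252), without the first SB library (-0.0794) and without the first 3-day library (-0.0156). The call between 7 days and 3 days was lost without the second 3-day library (0.33) and without the second 7-day library (0.32).

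CD55 went the other way. It was at 11585 and 9884 normalized counts in SB, at 7966 and 7046 at 3 days and then 8633 and 9081 at 7 days. Both SB libraries were above the 4 TGFβ libraries. Relative to SB, CD55 was called lower at 3 days (-0.51, SE 0.10) and at 7 days (-0.27, SE 0.10). The call at 7 days was lost without the first SB library (-0.16) or either 7-day library (-0.24 and -0.31). The 7-day pair lay above the 3-day pair, and their difference of 0.24 (SE 0.10) was not called.

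**Figure D3:**
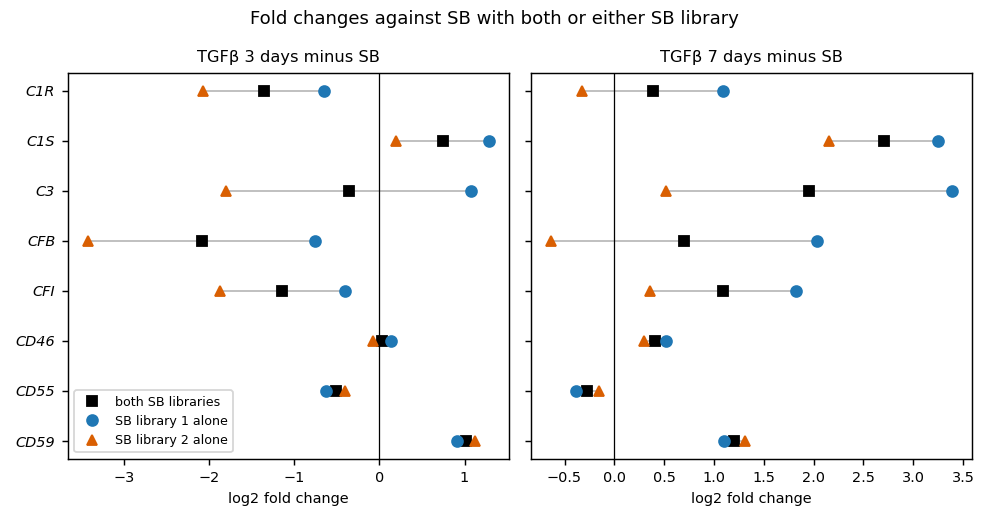
Log2 fold changes against SB (horizontal axes) at 3 days and 7 days of TGFβ for the 8 genes tested, with both SB libraries (squares), SB library 1 alone (circles) or SB library 2 alone (triangles). CFB at 7 days ranges from -0.63 to 2.04, whereas CD59 at 7 days stays between 1.10 and 1.31.

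Counts of calls are set beside those over all genes. At 3 days relative to SB, 5 of the 8 genes tested were called, CD59 higher and CFB, CFI, C1R and CD55 lower, where 29% of all genes tested were called (14.9% higher and 14% lower). At 7 days relative to SB, 6 were called, with C3, CFI, C1S, CD46 and CD59 higher and CD55 lower, where 54.5% of all genes were called (27.7% higher and 26.9% lower). Between 7 days and 3 days, 6 were called, C3, CFB, CFI, C1R, C1S and CD46, each higher at 7 days, where 33.2% of all genes were called (17% higher and 16.2% lower). Groups without overlap were also common among all genes. At 3 days relative to SB, 2 of the 8 genes lay wholly above SB and 4 wholly below it (30.3% and 32.9% of all genes, 63.2% in all). At 7 days 5 lay above SB and 1 below it (38.9% and 38.6%, 77.5% in all). Between 7 days and 3 days all 8 were higher at 7 days in both libraries than in either 3-day library (36.2% of all genes were, 32.9% were lower, 69.1% in all). The median log2 fold change of the 8 genes was -0.44 at 3 days and 0.90 at 7 days relative to SB, and 1.85 between 7 days and 3 days, beside medians of -0.0215, -0.00081 and 0.0187 over all genes. The SB libraries are shared by the first and second comparisons. Because the genes were chosen with these values known, the counts are not evidence of a response of complement genes as a class. When limma was run with no trend, the counts of calls were 2, 3 and 3, and CFB was not called between 7 days and 3 days. The share of all genes called was not counted in that setting.

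Per kilobase of transcript, the membrane regulators lay above the secreted components in every group. In SB the highest level was that of CD55 (3816 and 4473 normalized counts per kilobase in the lower and the higher library), followed by CD46 (2282 and 2658) and CD59 (2023 and 2338), and the ranges of CD46 and CD59 overlapped. At 3 days CD59 came first (4226 and 4578), above CD55 (2720 and 3076) and CD46 (2436 and 2597), with no overlap. At 7 days CD59 remained first (4890 and 5141), and CD55 (3333 and 3506) and CD46 (3131 and 3396) overlapped. CFI was the highest of the secreted proteins in each group, with 331 to 914 in SB, 239.6 to 258 at 3 days and 1116 to 1238 at 7 days. CFB followed with 84.0 to 537, 48.9 to 50.5 and 344 to 348, so that in SB its range overlapped those of CFI and of C1R (55.9 to 150.1). C1S was at 76.8 to 78.7 at 7 days, C3 did not exceed 5.93 in any library and SERPING1 did not exceed 2.73. With the length of all annotated exons in place of that of 1 transcript, CD59 also came first in SB, and the order of the other groups did not change.

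The other parts of the complement system were followed in a list of 51 genes, of which 41 were in the table and 17 had a mean of at least 10. Most recognition molecules and pore components measured were at or near 0. MBL2, C7 and CFHR5 were at 0 in every library, C1QB, FCN1, COLEC10, C6 and C9 did not exceed 1, and C8G did not exceed 10. C2 was at 8 to 11 normalized counts and C5, the component cleaved to start the pore, at 79 to 134, and neither was called in any comparison. Relative to SB, 7 of the 17 genes were called at 3 days (2 higher and 5 lower) and 7 at 7 days (2 higher and 5 lower), beside 29% and 54.5% of all genes. Between 7 days and 3 days 5 were called, 4 higher and 1 lower, beside 33.2%. The median log2 fold changes of the list were -0.19, -0.11 and 0.09.

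Receptors for complement fragments moved in both directions. C3AR1, the receptor of the C3a fragment, was at 22 and 17 normalized counts in SB, at 48 and 52 at 3 days and then 139 and 131 at 7 days, and the groups did not overlap. C3AR1 rose by 1.32 (log2) from SB to 3 days (SE 0.24, adjusted p = 0.00163), by 1.42 from 3 days to 7 days (adjusted p = 0.00142) and by 2.74 from SB to 7 days (adjusted p = 2.6e-06). ITGAX and ITGB2 encode the α and β chains of complement receptor 4, and they changed in opposite directions. ITGAX was at 30 and 87 in SB, at 98 and 132 at 3 days and then 318 and 310 at 7 days, with log2 fold changes relative to SB of 1.14 (SE 0.37, adjusted p = 0.0372) and 2.59 (adjusted p = 0.000107). ITGB2 was at 66 and 63 in SB, at 10 and 11 at 3 days and then 1 and 7 at 7 days, with log2 fold changes of -2.51 (SE 0.55, adjusted p = 0.00507) and -4.03 (adjusted p = 7.96e-05). Against the second SB library alone the ITGAX values were 0.38 and 1.84, and against the first alone 1.89 and 3.34. The ITGAX call at 3 days was lost without the first SB library and without the second 3-day library (0.92), and its rise of 1.46 between 7 days and 3 days (adjusted p = 0.011) was lost without the first 3-day library (1.24) and without either 7-day library (1.44 and 1.48). The log2 difference of ITGB2 between 7 days and 3 days was -1.52 (adjusted p = 0.0528), a difference called without the second 7-day library (-2.52) and under other scalings (-1.53 with median-of-ratios size factors and -1.51 with the upper quartile). Relative to SB at 7 days it was -3.03 or -5.03 when the first or the second 7-day library was left out, and the 7-day values rest on few reads. CR2, complement receptor 2, fell relative to SB by 1.28 at 3 days (adjusted p = 0.0264) and by 2.11 at 7 days (adjusted p = 0.000639), from 38 and 37 to 11 and 20 and then to 7 and 9. The CR2 call at 3 days was lost without either SB library (-1.26 and -1.30) and without the first 3-day library (-0.87).

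**Figure D4:**
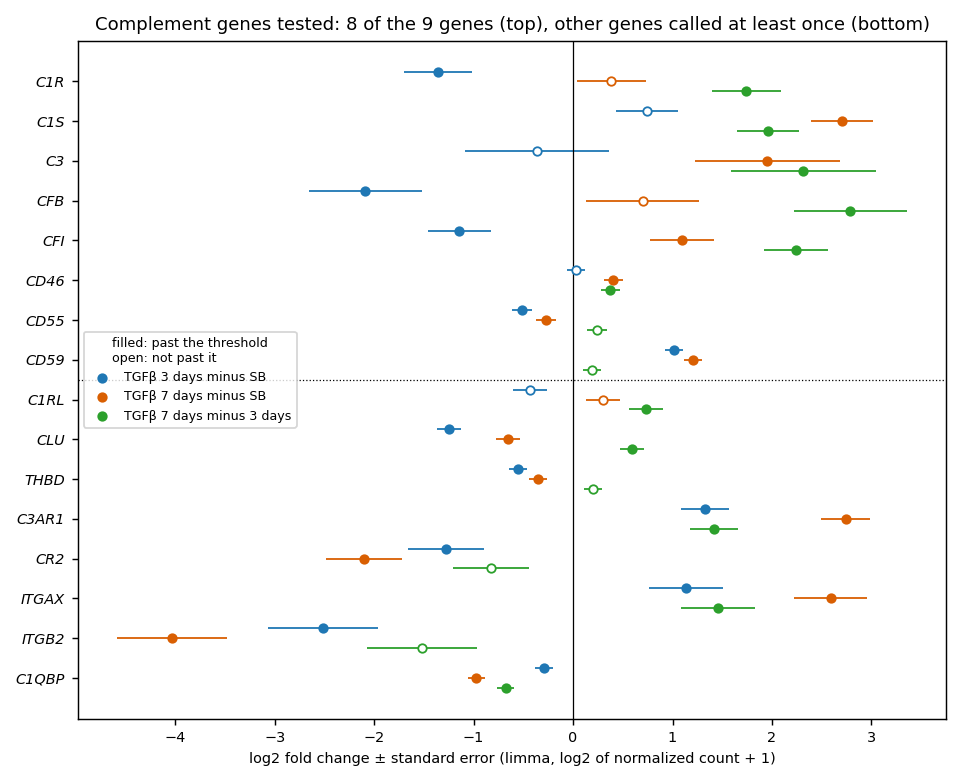
Log2 fold changes (horizontal axis, ± standard error) in the 3 comparisons for the 8 of the 9 genes tested (above the dotted line) and for the 8 other complement genes called in at least 1 comparison (below it), filled where the gene was called. C3AR1 and ITGAX lie to the right in each comparison, ITGB2 and CR2 lie to the left.

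Among regulators and proteases outside the 9 genes, CLU, which encodes clusterin, an inhibitor of pore assembly, was at 1364 and 1395 normalized counts in SB, at 538 and 628 at 3 days and then 933 and 822 at 7 days. It fell relative to SB by 1.25 at 3 days (SE 0.12, adjusted p = 9.89e-06) and by 0.65 at 7 days (adjusted p = 0.000601), and was 0.59 higher at 7 days than at 3 days (adjusted p = 0.00316). THBD, which encodes thrombomodulin, fell by 0.55 at 3 days (adjusted p = 0.000808) and by 0.35 at 7 days (adjusted p = 0.00648). C1QBP, a mitochondrial protein that also binds C1q, fell by 0.29 at 3 days (adjusted p = 0.0241) and by 0.97 at 7 days (adjusted p = 2.49e-06), and by 0.68 between 3 days and 7 days (adjusted p = 0.000219). The C1QBP call at 3 days was lost without the first SB library (-0.22), or either 3-day library (-0.33 without the first and -0.25 without the other). C1RL, a C1r-like protease gene next to C1R, was at 760 and 1165 in SB, at 651 and 750 at 3 days and then 1223 and 1098 at 7 days. C1RL was called when 7 days was compared with 3 days (0.73, SE 0.17, adjusted p = 0.00753), but not (0.65) once the first 7-day library was left out. Set against SB, its differences of -0.43 at 3 days and 0.30 at 7 days were not called (adjusted p = 0.0822 and 0.158), whereas it was called lower at 3 days without the first SB library (-0.74) and higher at 7 days without the second (0.61). In the annotation on GRCh37 used here C1RL overlaps C1R on the same strand, and reads in a shared stretch could have been left out of both counts.

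Acute-phase proteins, which like several complement components are secreted in inflammation, were also followed, in a list of 18 genes of which 16 were in the table and 5 were tested. SERPINA1, which encodes α1-antitrypsin, was at 4138 and 4260 normalized counts in SB, at 5496 and 5383 at 3 days and then 11332 and 11308 at 7 days, with log2 fold changes relative to SB of 0.37 (adjusted p = 0.00349) and 1.43 (adjusted p = 3.86e-08). SERPINA3, which encodes α1-antichymotrypsin, was at 9 and 26 in SB, at 8 and 9 at 3 days and then 185 and 196 at 7 days, and SERPINA3 rose by 4.33 from 3 days to 7 days (SE 0.41, adjusted p = 3.17e-05). At 3 days relative to SB it differed by -0.79 (adjusted p = 0.169), and it was called lower without the first SB library (-1.51). LCN2, which encodes lipocalin 2, was split within SB like CFB, at 21 and 98, and was at 12 and 7 at 3 days and then 23 and 12 at 7 days. It fell by 2.19 relative to SB at 3 days (adjusted p = 0.0171), a call lost without the second SB library (-1.11) and without the second 3-day library (-1.84). PTX3, a pentraxin gene, fell by 0.63 relative to SB at 7 days (adjusted p = 0.00564), lost without the first SB library (-0.37), and by 0.75 between 3 days and 7 days (adjusted p = 0.00453). SAA1 did not exceed 9 in any library, and HP did not exceed 1. In all, 2 of the 5 genes were called at 3 days relative to SB, 3 at 7 days and 3 between 7 days and 3 days, beside 29%, 54.5% and 33.2% of all genes.

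The genes with the most similar patterns were sought among those averaging at least 100, by the root mean square difference of log2 values centred on each gene's mean over the 6 libraries. For CFI these were CYP24A1 (0.213), SYT12 (0.297) and SCD5 (0.316), and CYP24A1 was at 425 and 954 normalized counts in SB, at 330 and 306 at 3 days and then 1069 and 1146 at 7 days. For CFB they were CFI (0.523), IFI27 (0.524) and C1R (0.576), and IFI27, an interferon-stimulated gene, was at 40 and 430 in SB, at 31 and 55 at 3 days and then 168 and 125 at 7 days. For C3 they were MIR210HG (0.577), LTBP3 (0.578) and CFI (0.586). The neighbours of CFI lay closer to it than those of CFB and C3 did to theirs.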

How the data were processed

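The 6 RNA-seq libraries form 3 groups of 2. The authors mapped read pairs to hg19 with STAR, counted reads with a unique position per gene in HTSeq (0.6.1p1, default settings) and normalized the counts by library size. FastQC 0.11.5 and DESeq2 (listed as 3.4) are also named in the submitters' processing notes, and the annotation release is not given in the sources used here. The deposited values, treated as a score, are these normalized counts rounded to whole numbers, so the negative binomial test of the study was not used. The library kit does not mark strand, and C1S overlaps LPCAT3 on the opposite strand. Reads of such overlaps cannot be told apart. In the annotation on GRCh37 used here, other protein-coding entries, absent from the deposited table, also overlap members on the same strand. They cover CFB from 31913427 to 31919825, CFI from 110652164 to 110723155 and CD59 from 33724556 to 33744013. C1S is covered in part, from 7096351 to 7105520. The effect of these overlaps on the counts was not tested.

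Values were transformed as log2(value + 1), and limma 3.58.1 (R 4.3.3) was run on the 14395 genes whose mean reached 10 (empirical Bayes with a trend, 3 residual degrees of freedom, group as the only term) and adjusted by the Benjamini-Hochberg method. An exact permutation test (two-sided) of 2 against 2 cannot give a p below 0.333. The genes and lists were chosen with earlier results of these data known. Named were the 9 genes, listed genes called in at least 1 comparison, the 3 most similar genes to C3, CFB and CFI, and TGFβ targets; other listed genes are named by their level. Coordinates and transcript lengths were taken from GENCODE on GRCh37, with the longest basic transcript for C1R. Promoters came from RefSeq (GRCh38.p14). Intervals and floors cover counting error only. The fit was tested on simulated data. Alternatives were the pseudocount, the filter, the scaling, the trend, the libraries fitted and the replicate block. Some items are not reported here. Figures were drawn with matplotlib 3.10.9.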

Additional observations from a re-analysis of the deposited data

Results flagged for a closer look

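Levels after 7 days and 3 days of TGFβ differed, by the limma test of 7 days minus 3 days, in 6 of the 8 genes tested. They also differed in 5 of the 17 other complement genes, where 33.2% of all genes tested were called. Length of treatment and time in culture cannot be told apart in this comparison. The 8 genes were chosen with these values in view. The log2 differences were 2.32 for C3, 2.79 for CFB, 2.24 for CFI, 1.74 for C1R, 1.96 for C1S and 0.374 for CD46. They were 0.729 for C1RL, 0.59 for CLU, 1.42 for C3AR1, 1.46 for ITGAX and -0.678 for C1QBP. CFI was called on opposite sides of SB at the 2 times, but both of these calls were lost without the trend and without the filter on low values. For CFB and C1R the 7-day level relative to SB had a direction that depended on the SB library, as given in the report. With 2 libraries per group, no test for a library that stands apart could be made within a group.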

How the results depend on the processing

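Of the 333 alternative values for the 8 genes tested, 289 kept their direction and their side of the threshold, 33 lost the call, 5 gained it and 6 changed sign. Of 621 for the other named genes, 575 kept both. The number of the 8 genes called at 3 days relative to SB was 2 without the filter on low values and 2 without the trend, against 5, and 5 to 6 with 1 library left out. At 7 days relative to SB it was 3 in both settings, against 6, and 3 to 8 with 1 library left out. Between 7 days and 3 days it was 2 without the filter and 3 without the trend, against 6, and 4 to 5 with 1 library left out. Relative to SB, the calls lost in both settings were those of CFB, CFI and C1R at 3 days and of C3, CFI and CD55 at 7 days. Between 7 days and 3 days they were those of C3, CFB and CD46, and that of C1R was lost without the filter only. The cause of these losses was not tested. The share of all genes called was counted for the main fit only. Whether a change in the counts under an alternative setting is particular to the listed genes therefore cannot be told. The other complement genes called between 7 days and 3 days numbered 3 to 5 with 1 library left out. The acute-phase genes called at 3 days numbered 1 with a mean of at least 50, where LCN2 was not tested, 1 without the trend and 1 to 3 with 1 library left out. Changes of sign were those of C3 at 3 days relative to SB (-1.80 without the first SB library and 1.08 without the second), CFB and C1R at 7 days (-0.634 and -0.325 without the first SB library, 2.04 and 1.09 without the second), CD46 at 3 days (0.14 without the second SB library, -0.0252 with equal library totals, -0.0794 without the first SB library and -0.0156 without the first 3-day library), C1RL at 7 days relative to SB (-0.00767 and 0.608) and PTX3 at 3 days (0.38 without the first SB library, -0.138 without the second and -0.0278 without the first 3-day library). A library left alone in its group was assumed to vary like the others. With the replicate number as a block, 5, 6 and 6 of the 8 genes were called in the 3 comparisons, and 8, 7 and 6 of the 17 other complement genes, C1RL at 3 days (-0.43) and ITGB2 between 7 days and 3 days (-1.52) being gained. Differences between libraries of a pair correlated across genes at 0.14 (SB and 3 days), -0.1 (SB and 7 days) and -0.292 (3 days and 7 days), so the numbers were not taken to pair the samples. With the 7-day numbers crossed, a setting chosen after seeing the data, the calls were 5, 6 and 8. Because of that choice, the 8 calls between 7 days and 3 days are not further evidence for these genes. Values below about 10 normalized counts (SERPING1, and C3 in the first SB library and at 3 days) rest on few reads.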
